A study of Rattus norvegicus with 8 samples.

Results

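The transcripts described here are the long noncoding RNAs (lncRNAs) of rat nucleus pulposus cells, which fill the soft centre of the intervertebral disc. They were chosen by biotype and level: they are the rows of the deposited expression table whose biotype is lncRNA and whose mean over the 8 libraries was at least 1 TPM (a measure of transcript level scaled for transcript length and for the total of the library). This held for 239 of the 762 lncRNA rows, in a table of 4226 genes. Of the 239, 4 carried a gene symbol and 235 did not: 2 of those had a locus name and 233 an Ensembl identifier alone. The mean level chose the members, so it is given as a description; the lowest means inside the limit were 1.00, 1.00 and 1.01 TPM and the highest outside it 0.996, 0.990 and 0.990 TPM.

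SOD1, an enzyme of the cytosol that turns superoxide into hydrogen peroxide, was first depleted in the cells by knockdown. They were then transfected with the K123R mutant of SOD1, where arginine stands in place of a lysine (SOD1-K123R, 4 libraries), or with wild-type SOD1 (SOD1-WT, 4 libraries). By the labels and the design text, the cells of all 8 libraries were kept in 10 mM lactate for 7 days. Cells without lactate or without transfected SOD1 were not analysed here. The table heads the SOD1-K123R columns L and the SOD1-WT columns Ctrl, letters that the labels do not expand, and the level of SOD1 itself was not analysed here. The sources used here do not give the sex and age of the animals, the number of donors, or whether replicates came from different cultures, so a p-value here reflects the spread among these libraries alone, and that spread may be technical. The labels number the libraries within each group and state no batch. Whether handling differed between the groups is therefore unknown, and any such effect and the effect of the group cannot be told apart.

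Long noncoding RNAs are transcripts that are not known to be translated. Some act in the nucleus on chromatin or on the assembly of nuclear bodies, some bind proteins or microRNAs in the cytoplasm, and others are hosts from which small nucleolar RNAs or microRNAs are cut. Many annotated lncRNA loci have no assigned function. The symbols of well-studied lncRNAs were all but missing from the rows analysed. Of 88 such symbols (among them snoRNA hosts, microRNA hosts, imprinted, X inactivation, Hox cluster and p53-linked lncRNAs), 1 was in the table. This was Tug1, a lncRNA of human and mouse that binds chromatin regulators, and the table types it as protein-coding, so it is no member. Only 21 of the 762 lncRNA rows carried a symbol or locus name. Rows with an identifier alone could not be searched, so whether they hold such lncRNAs is unknown. Tug1 read 9.08, 8.51, 4.23 and 5.67 TPM in SOD1-K123R, against 16.3, 24.3, 29.5 and 21.4 TPM in SOD1-WT (log2 fold change -1.62, SE 0.22, limma adjusted p = 1.18e-05). No member had a symbol that marks an antisense or divergent transcript, so no pair with a neighbouring coding gene could be formed from the names.

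The 6 members with a symbol or locus name all matched an entry of RefSeq (assembly GRCr8) by symbol, while the reference gene table held no Ensembl identifiers, so none of the 233 others could be placed. RefSeq lists 5 of the 6 (Cd28, Raet1ll2, Zfp790l3, Dkc1 and LOC134485139) as protein-coding and only LOC108349241 as a lncRNA. The biotype by which they became members therefore differs between the annotations, and their values may be those of a noncoding transcript of a coding gene; which transcript was counted was not tested. The 250 bases before the RefSeq start of 5 of them are shown because these are the members that can be set on the genome, 3 of them among the passing loci with a symbol and Dkc1 as the one that did not pass. They are written 5' to 3', and capitals mark exact matches on either strand to the TATA box, the CCAAT box, the GC box, the E-box or the AP-1 site, each with the letters given after the sequences. Where RefSeq has several starts the first listed is shown, and for LOC134485139 none was used here.
Cd28 (chr9:69660066-69660315, plus strand): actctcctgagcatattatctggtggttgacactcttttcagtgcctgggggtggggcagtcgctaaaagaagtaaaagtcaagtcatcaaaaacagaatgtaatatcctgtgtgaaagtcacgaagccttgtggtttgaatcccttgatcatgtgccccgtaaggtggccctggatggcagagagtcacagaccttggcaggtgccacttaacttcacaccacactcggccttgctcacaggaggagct
Raet1ll2 (chr1:3868555-3868804, minus strand): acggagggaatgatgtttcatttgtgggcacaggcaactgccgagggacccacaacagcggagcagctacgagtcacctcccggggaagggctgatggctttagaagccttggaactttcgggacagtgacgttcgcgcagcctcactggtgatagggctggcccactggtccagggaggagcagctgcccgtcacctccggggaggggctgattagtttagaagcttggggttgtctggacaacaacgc
Zfp790l3 (chr7:8430894-8431143, minus strand): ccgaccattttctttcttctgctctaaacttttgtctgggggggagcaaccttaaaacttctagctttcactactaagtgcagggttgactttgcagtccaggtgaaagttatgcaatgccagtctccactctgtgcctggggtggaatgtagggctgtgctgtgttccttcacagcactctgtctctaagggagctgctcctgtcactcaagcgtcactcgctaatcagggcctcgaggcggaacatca
Dkc1 (chrX:157751401-157751650, plus strand): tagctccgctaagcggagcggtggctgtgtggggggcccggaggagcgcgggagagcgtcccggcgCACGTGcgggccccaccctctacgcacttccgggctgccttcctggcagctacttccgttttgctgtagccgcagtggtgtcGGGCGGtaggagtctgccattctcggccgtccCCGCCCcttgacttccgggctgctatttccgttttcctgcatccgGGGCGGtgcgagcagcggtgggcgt
LOC108349241 (chrX:105171637-105171886, minus strand): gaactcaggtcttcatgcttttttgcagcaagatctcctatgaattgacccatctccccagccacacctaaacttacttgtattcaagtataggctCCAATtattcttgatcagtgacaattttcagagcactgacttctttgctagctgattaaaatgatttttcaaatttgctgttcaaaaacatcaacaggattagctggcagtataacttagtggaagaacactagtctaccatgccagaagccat
The windows of Cd28, Raet1ll2 and Zfp790l3 held none of the 5 motifs. The window of Dkc1 held 3 GC boxes and 1 E-box, and that of LOC108349241 held 1 CCAAT box. Among 33469 RefSeq promoter windows of the same length, 12.9% held the TATA box, searched as TATAAA. The CCAAT box, searched as CCAAT, was in 34% of the windows. The GC box, searched as GGGCGG, was in 30.5% of them. The E-box, searched as CACGTG, was in 5.59%, and the AP-1 site, searched as TGACTCA, was in 4.05%.

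Among the 4 named lncRNAs, 2 fell, 1 rose and 1 did not pass the test in SOD1-K123R. Values were compared as log2(TPM + 1) with limma over all 2890 genes of at least 1 TPM, with a gene passing at a Benjamini-Hochberg adjusted p under 0.05, two-sided; on this scale changes of low genes are understated. Of all genes tested 95.7% passed, so passing sets no gene apart. Raet1ll2, of the RAET1 family whose members in human and mouse are ligands of the killer-cell receptor NKG2D, was the most abundant. It read 4.19, 4.69, 3.11 and 2.96 TPM in SOD1-K123R, against 9.49, 12.7, 14.9 and 12.1 TPM in SOD1-WT (log2 fold change -1.49, SE 0.16, limma adjusted p = 1.52e-06). Every SOD1-K123R library lay below every SOD1-WT library, and SOD1-WT replicate 3 was the highest of its group.

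Cd28, which encodes a co-stimulatory receptor of T cells, read 2.06, 2.14, 1.59 and 1.58 TPM in SOD1-K123R, against 4.73, 7.05, 8.26 and 5.05 TPM in SOD1-WT. The groups did not overlap, and the level fell by 1.33 on the log2 scale (SE 0.16, limma adjusted p = 5.70e-06). Of 6 markers of macrophages and leukocytes 1, Cd68, was in the table, at 22.8 to 29.8 TPM in SOD1-K123R and 5.44 to 7.94 TPM in SOD1-WT; the part of such cells in the values of Cd28 was not tested. In bulk libraries fewer cells of a kind and less RNA per cell cannot be told apart.

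Zfp790l3, a zinc finger gene of the Zfp790-like group, read 2.16, 2.66, 1.31 and 1.31 TPM in SOD1-K123R, against 0.430, 0.730, 0.920 and 0.650 TPM in SOD1-WT. It rose (log2 fold change 0.74, SE 0.17, limma adjusted p = 0.000859), the groups did not overlap, and SOD1-K123R replicates 1 and 2 read higher than replicates 3 and 4. With a pseudocount of 0.1 its log2 fold change was 1.30. Dkc1 encodes dyskerin, the pseudouridine synthase of small nucleolar ribonucleoproteins and a part of telomerase. Its row read 3.57, 3.37, 3.35 and 4.09 TPM in SOD1-K123R and 3.80, 2.37, 3.18 and 3.87 TPM in SOD1-WT. The groups overlapped (log2 fold change 0.11, SE 0.14, limma adjusted p = 0.467), although median-of-ratios scaling and quantile normalization brought Dkc1 past the threshold (0.45 and 0.44 on the log2 scale, limma adjusted p = 0.0117 and 0.0115). With equal column totals the value was -0.14 and without SOD1-WT replicate 2 it was -0.0064, neither of which passed, so no direction is given for Dkc1.

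The 2 loci with a locus name moved in opposite directions. LOC134485139 read 2.51, 2.48, 1.26 and 2.23 TPM in SOD1-K123R, against 3.42, 4.51, 5.16 and 4.13 TPM in SOD1-WT (log2 fold change -0.78, SE 0.16, limma adjusted p = 0.000557). LOC108349241, the X-linked locus that RefSeq also calls a lncRNA, read 3.42, 3.95, 3.97 and 3.69 TPM in SOD1-K123R, against 1.89, 2.19, 2.88 and 2.19 TPM in SOD1-WT (log2 fold change 0.54, SE 0.12, limma adjusted p = 0.00107). Neither locus overlapped between the groups. Their sizes depended on scaling: after median-of-ratios scaling LOC134485139 stood at -0.45 and LOC108349241 at 0.88, after quantile normalization at -0.46 and 0.87, and with equal column totals at -1.01 and 0.31 (log2 fold changes, all passing).

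**Figure D1:**
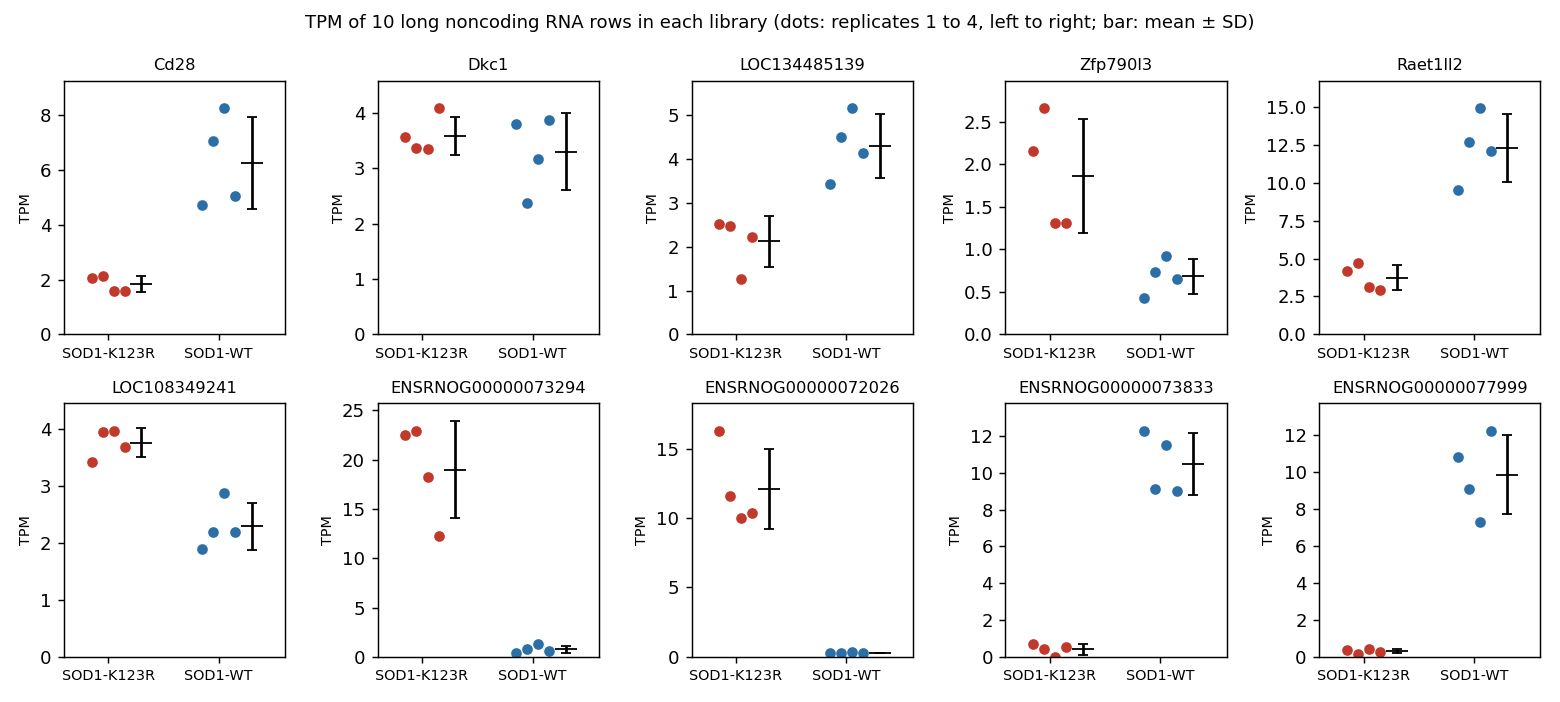
TPM of the 6 lncRNA rows with a symbol or locus name and of 4 rows with an Ensembl identifier alone, in each library; dots are replicates 1 to 4 of SOD1-K123R (left) and SOD1-WT (right), and bars are mean ± SD (n = 4 each). Only the dots of Dkc1 overlap between the groups, and ENSRNOG00000073833 and ENSRNOG00000077999 stay below 1 TPM in every SOD1-K123R library.

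Of the 235 unnamed loci, 116 (49.4%) rose, 97 (41.3%) fell and 22 did not pass in SOD1-K123R. Over all genes tested, 44.6% rose and 51.1% fell. On the log2(TPM + 1) scale 74 of these loci (31.5%) passed with a rise of at least 1, against 26.0% of all genes tested. A fall of at least 1 passed for 51 (21.7%), against 35.8% of all genes tested. This scale understates changes of low genes, and the median level was 2.69 TPM for these loci and 9.135 TPM for all genes tested. Shares by size of change in this paragraph are therefore not like for like. The groups did not overlap for 189 unnamed loci (80.4%), against 91.4% of all genes tested. The sources used here do not say by which rule rows entered the table, and it held few genes with a small change: 12.1% of the 239 members and 8.11% of protein-coding genes tested had an absolute log2 fold change under 0.5. The shares that pass therefore describe these rows and not the lncRNAs of the cells.

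The unnamed loci with the largest log2 fold changes were close to 0 TPM in 1 group and clearly present in the other. ENSRNOG00000073294 read 22.5, 22.9, 18.2 and 12.3 TPM in SOD1-K123R, against 0.410, 0.810, 1.26 and 0.560 TPM in SOD1-WT (log2 fold change 3.49, SE 0.20, limma adjusted p = 8.81e-09). ENSRNOG00000072026 read 16.3, 11.6, 10.0 and 10.4 TPM in SOD1-K123R, against 0.260, 0.280, 0.320 and 0.250 TPM in SOD1-WT (log2 fold change 3.33, SE 0.15, limma adjusted p = 1.16e-09). SOD1-K123R replicate 4 was the lowest of its group for ENSRNOG00000073294, and replicate 1 stood above the rest for ENSRNOG00000072026.

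In the other direction, ENSRNOG00000073833 read 0.720, 0.420, 0 and 0.520 TPM in SOD1-K123R, against 12.3, 9.12, 11.5 and 9.01 TPM in SOD1-WT (log2 fold change -3.04, SE 0.17, limma adjusted p = 8.17e-09). ENSRNOG00000077999 read 0.370, 0.180, 0.440 and 0.280 TPM in SOD1-K123R, against 10.8, 9.08, 7.31 and 12.3 TPM in SOD1-WT (log2 fold change -3.03, SE 0.15, limma adjusted p = 3.05e-09). The rule that picked these 4 loci asked for groups without overlap and at least 5 TPM in the higher group, so both were fixed beforehand. With a pseudocount of 0.1 the log2 fold changes of the 2 that fell were -4.70 for ENSRNOG00000073833 and -4.59 for ENSRNOG00000077999. The files do not pair these identifiers with names, so no function is given for them.

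**Figure D2:**
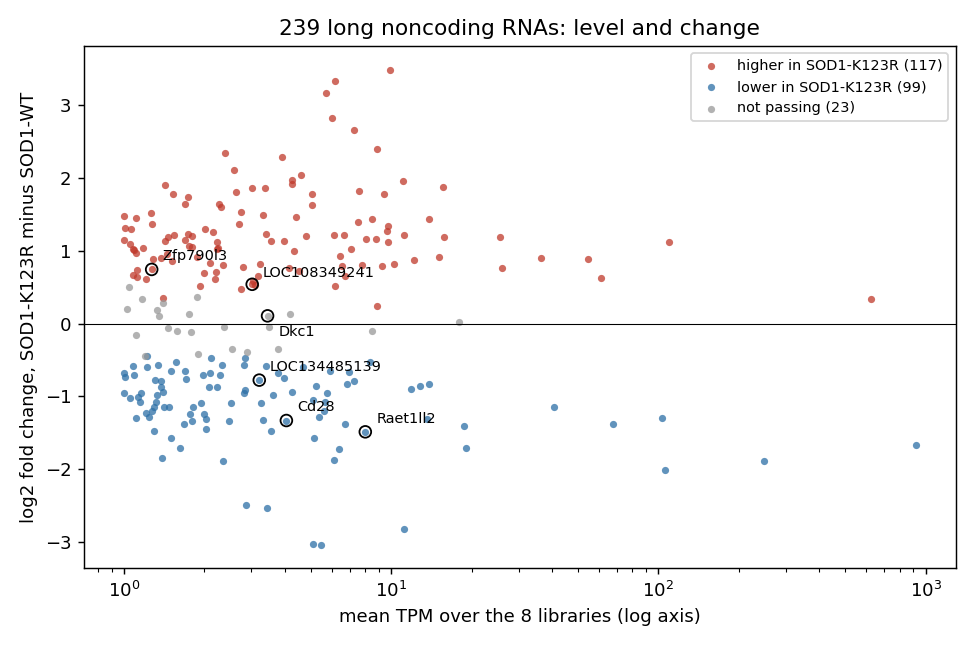
Mean TPM over the 8 libraries (log axis) against the log2 fold change (SOD1-K123R minus SOD1-WT) of the 239 lncRNAs; red points rose, blue points fell, grey points did not pass, and open circles mark the 6 members with a symbol or locus name. The points thin out around 0, and the most abundant locus lies among those that fell.

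Most lncRNAs were scarce, and the 3 most abundant held 44.4% ± 1.91 of the summed lncRNA TPM in SOD1-K123R and 60.8% ± 0.842 in SOD1-WT (mean ± SD, n = 4 each). The median of the 239 was 2.74 TPM, against 10.1 TPM for the 2639 protein-coding genes tested. Only 75 members reached 5 TPM, 13 reached 20 TPM and 6 reached 100 TPM. The most abundant, an unnamed locus without GO terms, read 435, 494, 411 and 402 TPM in SOD1-K123R, against 1071, 1395, 1729 and 1420 TPM in SOD1-WT (log2 fold change -1.67, SE 0.13, limma adjusted p = 9.62e-08). It made up 15.6% ± 0.481 of the summed lncRNA TPM in SOD1-K123R and 36.2% ± 2.13 in SOD1-WT (mean ± SD, n = 4 each).

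The second most abundant locus moved the other way and little, at 622, 748, 771 and 657 TPM in SOD1-K123R, against 570, 563, 575 and 492 TPM in SOD1-WT (log2 fold change 0.34, SE 0.09, limma adjusted p = 0.00324). The table gives this row GO terms of clathrin uncoating and chaperone-mediated autophagy, which are functions of proteins. The third read 125, 127, 86.7 and 79.6 TPM in SOD1-K123R, against 280, 417, 528 and 349 TPM in SOD1-WT (log2 fold change -1.89, SE 0.20, limma adjusted p = 1.12e-06). Of the 13 members at 20 TPM or more, 7 rose and 6 fell. Their groups did not overlap, which also held for 95.3% of the 868 protein-coding genes at that level.

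Summed over the 239 members, the level was 2827, 3084, 2735 and 2520 TPM in SOD1-K123R, against 3207, 3895, 4578 and 3742 TPM in SOD1-WT. The ranges did not overlap, and the ratio of the means was 0.724. Without the 3 most abundant, of which the second had risen, the net difference was no longer seen. The other 236 summed to 1552 ± 155 TPM in SOD1-K123R and 1508 ± 189 TPM in SOD1-WT (mean ± SD, n = 4 each), and these ranges overlapped. This likeness is of the sum, in which rises and falls offset each other, and not of the single loci. Within the sum over all 239, the 117 members that rose held 1838 ± 125 TPM in SOD1-K123R and 996 ± 63.2 TPM in SOD1-WT. The 99 that fell held 885 ± 121 TPM in SOD1-K123R and 2789 ± 525 TPM in SOD1-WT. The sum over all 239 also depended on scaling: its log2 ratio was -0.47 on the deposited values and -0.0078 after median-of-ratios scaling. The members made up 1.16% ± 0.0989 of the deposited TPM in SOD1-K123R and 2.00% ± 0.243 in SOD1-WT.

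**Figure D3:**
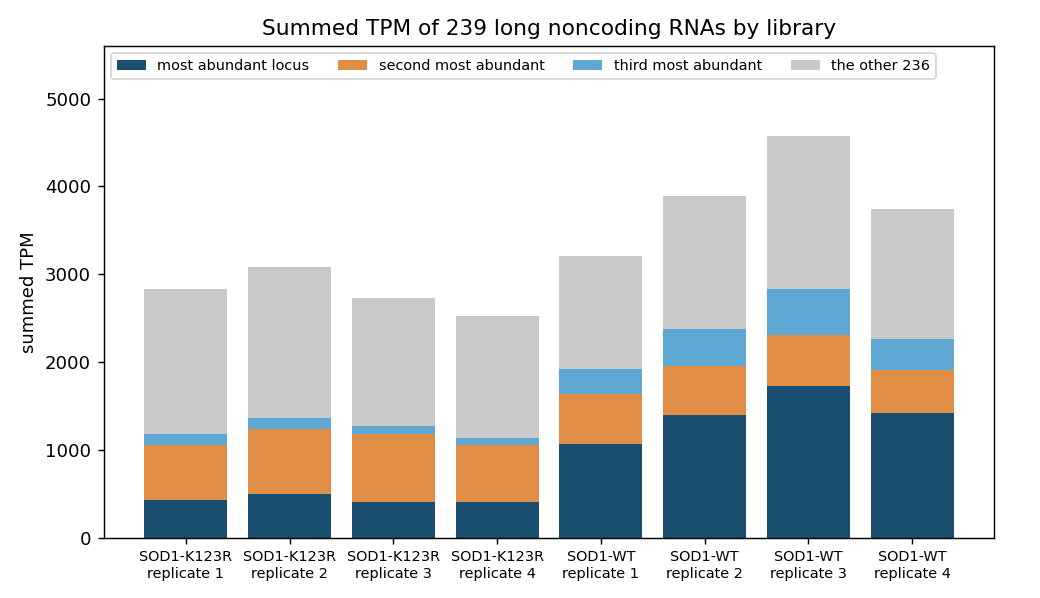
Summed TPM of the 239 lncRNAs in each library, SOD1-K123R on the left and SOD1-WT on the right, divided into the most abundant locus, the second, the third and the other 236. The SOD1-K123R libraries sum to 2520 to 3084 TPM and the SOD1-WT libraries to 3207 to 4578 TPM, while the grey segments of the groups overlap.

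Among the lncRNAs more loci rose than fell, and of the protein-coding genes 1166 rose and 1371 fell. The median log2 fold change was 0.29 for the 239 members and -0.55 for the 2639 protein-coding genes (-0.49 over all genes tested). The median of the members was 0.575 after median-of-ratios scaling, 0.46 after quantile normalization and 0.052 with equal column totals. Scaling moved the median of all genes by 0.32 (median-of-ratios), 0.24 (quantile) or -0.22 (equal column totals) on the log2 scale. Members that rose outnumbered those that fell under each of these, at 128 against 83, 126 against 87, and 108 against 104, and at 117 against 99 on the deposited values. Of passing members 60.7%, 59.2% and 50.9% rose under these scalings in that order, and 54.2% on the deposited values. Of all passing genes 49.9%, 47.8% and 43.7% rose under them, and 46.6% on the deposited values. No test of the class was made, since the members were chosen with results of these data known.

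The counts varied with level. Between 2 and 5 TPM, 39 of 74 lncRNAs (52.7%) rose and 28 (37.8%) fell, where 153 of 499 protein-coding genes (30.7%) rose and 315 (63.1%) fell. At 1 to 2 TPM, the class with the most members, more lncRNAs fell than rose: 36 of 90 (40.0%) rose and 40 (44.4%) fell, where 113 of 330 protein-coding genes (34.2%) rose and 195 (59.1%) fell. Between 5 and 20 TPM, 35 of 62 lncRNAs (56.5%) rose and 25 fell, where 384 of 942 protein-coding genes (40.8%) rose and 530 fell. At 20 TPM or more, 7 of 13 lncRNAs (53.8%) rose and 6 fell, where 516 of 868 protein-coding genes (59.4%) rose and 331 fell. The filter on the mean lets in loci that are high in 1 group only: 45 members averaged under 1 TPM in SOD1-K123R libraries, and 51 others did so in SOD1-WT libraries. Of the 143 with at least 1 TPM in both groups, 69 rose and 55 fell. Over all genes tested 44.6% rose and 51.1% fell. That share was not limited to genes at 1 TPM in both groups, so the comparison is not like for like.

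**Figure D4:**
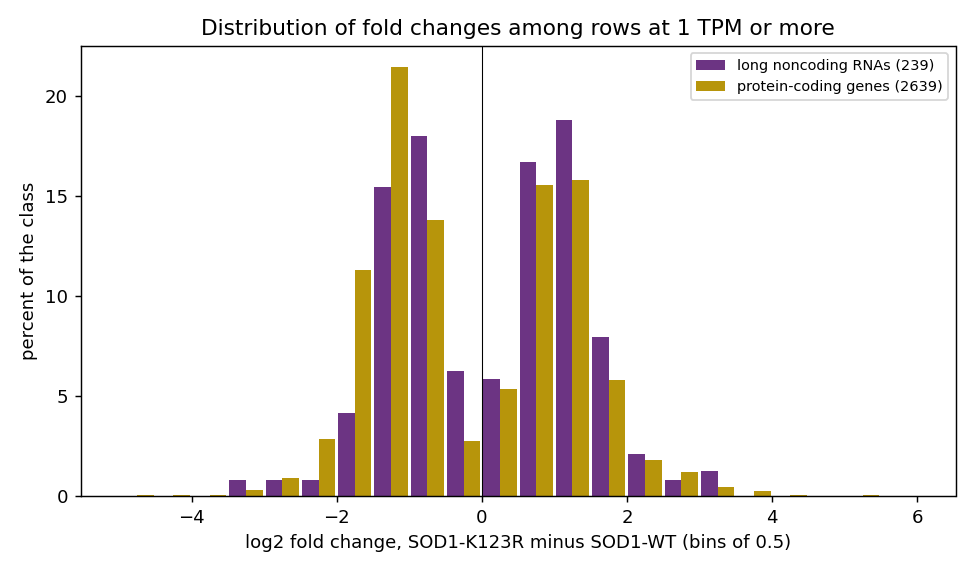
Share of each class in bins of 0.5 of the log2 fold change (SOD1-K123R minus SOD1-WT), for the 239 lncRNAs (purple) and the 2639 protein-coding genes tested (gold). Both classes have 2 peaks with few genes near 0, and the right peak is the higher one for the lncRNAs and the left peak for the protein-coding genes.

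The 23 members that did not pass were mostly scarce. Besides Dkc1 they were 22 unnamed loci with log2 fold changes of -0.45 to 0.51. Of the 90 members at 1 to 2 TPM 14 did not pass, of the 74 at 2 to 5 TPM 7, of the 62 at 5 to 20 TPM 2, and of the 13 above that none (adjusted p up to 0.00324, limma). The share that did not pass was 9.62% of members and 4.33% of all genes tested. It was 15.6% of members and 6.67% of protein-coding genes at 1 to 2 TPM. At 2 to 5 TPM these shares were 9.46% and 6.21%, and at 5 to 20 TPM 3.23% and 2.97%. The most abundant of the 23 read 20.1, 18.4, 17.9 and 15.2 TPM in SOD1-K123R and 13.0, 19.9, 14.6 and 24.3 TPM in SOD1-WT (limma adjusted p = 0.880), with SOD1-WT both the lowest and the highest. The median coefficient of variation among libraries of a group was 24.2% in SOD1-K123R and 26.0% in SOD1-WT for the lncRNAs, against 13.9% in SOD1-K123R and 13.3% in SOD1-WT for protein-coding genes. At 5 to 20 TPM it was 21.8% in SOD1-K123R and 20.5% in SOD1-WT for lncRNAs, against 13.5% in SOD1-K123R and 12.9% in SOD1-WT for protein-coding genes.

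The libraries of a group were also ordered alike in many members. Both SOD1-K123R replicates 1 and 2 read above both replicates 3 and 4 in 118 of 239 members (49.4%), and in 873 of 2639 protein-coding genes (33.1%). The reverse held for 10 members (4.18%) and 262 protein-coding genes (9.93%). In SOD1-WT, replicate 3 was the highest library for 128 members (53.6%) and replicate 1 the lowest for 131 (54.8%), against 37.0% and 40.4% of protein-coding genes. The order was seen in members that rose (SOD1-K123R replicates 1 and 2 above 3 and 4 in 66 of 117) as in those that fell (46 of 99). These shares are descriptions without a test, and members of 1 library are not independent.

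The table attaches GO terms, which describe gene products, to 112 of the 239 members, and gives 127 none. The sources used here do not say how terms were assigned to noncoding rows. Of members with terms 57 (50.9%) rose and 41 (36.6%) fell, and of those without terms 60 (47.2%) rose and 58 (45.7%) fell. Over all genes tested 44.6% rose and 51.1% fell. The 112 shared 47 distinct sets of terms, so many rows carry the same annotation: 33 members had the single term membrane, 10 the single term catalytic activity and 8 the pair nucleus and calcium-dependent protein binding, a pair found in 14 rows of the table, all typed lncRNA.

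Rows with some terms moved in 1 direction, as was seen after their values were known and was not tested. All 10 members with the term cell-matrix adhesion rose in SOD1-K123R, against 44.6% of all genes tested, and 9 of them also had the terms basement membrane and calcium ion binding. Their log2 fold changes ran from 0.35 to 1.92 (median 1.42). A log2 fold change of at least 1 was seen in 8 of the 10, where 26.0% of all genes tested passed with such a rise. The groups did not overlap in 9 of the 10, which is near the 91.4% of all genes tested. The most abundant of the 10 read 23.5, 24.3, 21.2 and 19.9 TPM in SOD1-K123R, against 9.61, 8.68, 8.95 and 9.57 TPM in SOD1-WT (log2 fold change 1.18, SE 0.10, limma adjusted p = 1.88e-07). Another was the only member listed at 0 in every library of a group: it read 3.42, 3.40, 3.21 and 1.36 TPM in SOD1-K123R and was listed at 0 in SOD1-WT. Several of the 10 averaged under 1 TPM in SOD1-WT (0, 0.61, 0.73, 0.74 and 0.91 TPM). These reached the limit of 1 TPM only through SOD1-K123R, so the filter itself favoured a rise among them. The term is on 16 lncRNA rows in all, and those below the limit are not counted here. Of the 11 protein-coding genes tested with the term cell-matrix adhesion 5 rose and 6 fell (median log2 fold change -0.84). Rows that share a set of terms may also share sequence, in which case their TPM are not independent; this was not tested.

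All 10 members with the term extracellular region rose as well (log2 fold changes of 0.35 to 2.29), 8 of which also had cell-matrix adhesion, while 20 of 48 protein-coding genes with that term rose. Here too some members averaged under 1 TPM in SOD1-WT and passed the filter only through SOD1-K123R. Of the 11 with plasma membrane 9 rose and 2 fell, 4 of the 11 having cell-matrix adhesion too. Among the 10 with cytosol 7 rose, 2 fell and 1 did not pass, and among the 8 with identical protein binding 6 rose, 1 fell and 1 did not pass. Of the 18 with nucleus 8 rose, 7 fell and 3 did not pass. Over all genes tested 44.6% rose. Of the protein-coding genes with these terms, 121 of 266 with plasma membrane rose, as did 197 of 420 with cytosol. With identical protein binding 61 of 141 protein-coding genes rose, and with nucleus 317 of 592.

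For 2 terms most members fell. Of the 8 members with calcium-dependent protein binding 6 fell and 2 did not pass, with log2 fold changes of -1.87 to 0.21. Over all genes tested 51.1% fell, and of the 4 protein-coding genes with that term 3 fell. The groups did not overlap in 6 of the 8 members, against 91.4% of all genes tested. Of the 10 with catalytic activity 7 fell, 1 rose and 2 did not pass (median log2 fold change -0.65), while 13 of 19 protein-coding genes with that term fell. In the opposite direction, of the 10 with mitochondrion 8 rose and 2 did not pass, where 75 of 125 protein-coding genes fell. The 46 members with the term membrane were divided, with 22 up and 20 down, while of 208 protein-coding genes with that term 87 rose and 115 fell.

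**Figure D5:**
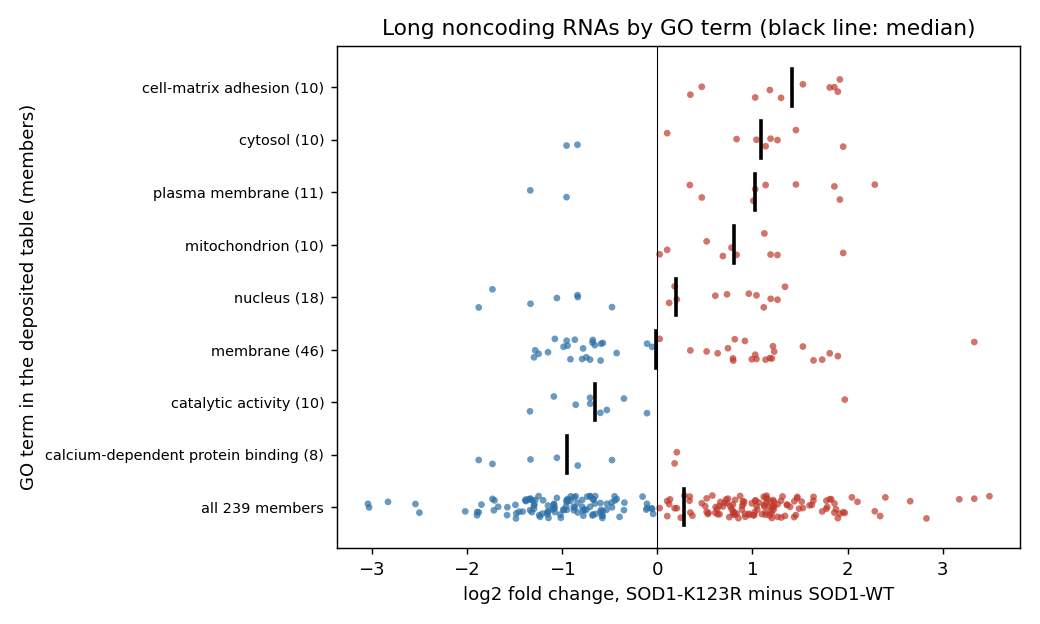
Log2 fold change (SOD1-K123R minus SOD1-WT) of the lncRNAs that carry each of 8 GO terms in the deposited table and of all 239; each point is a locus, red above 0 and blue below it, and black lines are medians. The 10 loci with cell-matrix adhesion all lie above 0, and those with calcium-dependent protein binding lie mostly below it.

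The 8 libraries had deposited TPM that summed to 235371 to 243393 in SOD1-K123R and 187515 to 198656 in SOD1-WT, so the table holds only some of the genes that were quantified. Sequencing depth cannot be recovered from TPM. Of 18 nucleus pulposus markers 5 were in the table, with a summed 28.8 to 45.6 TPM in SOD1-K123R and 19.4 to 22.9 TPM in SOD1-WT. Most of the sum in SOD1-K123R was Cd24, at 22.9 to 38.2 TPM in SOD1-K123R and 8.55 to 11.7 TPM in SOD1-WT. The transcription factor gene Sox9 was higher too, at 2.67 to 3.87 TPM in SOD1-K123R and 0.270 to 0.490 TPM in SOD1-WT, and the N-cadherin gene Cdh2 was lower, at 2.52 to 3.57 TPM in SOD1-K123R and 8.98 to 9.89 TPM in SOD1-WT. The proteoglycan core gene Acan stayed between 0.50 and 0.72 TPM in SOD1-K123R and between 1.23 and 2.16 TPM in SOD1-WT, and the collagen gene Col2a1 was at most 0.0800 TPM in SOD1-K123R and was listed at 0 in SOD1-WT. Of the tendon and annulus markers Scx and Thbs4 were present (summed 17.0 to 21.7 TPM in SOD1-K123R and 34.6 to 55.2 TPM in SOD1-WT), and of the endothelial markers only Pecam1, at 0.320 to 0.460 TPM in SOD1-K123R and 0.0600 to 0.310 TPM in SOD1-WT. Of the pericyte markers Mcam was present, at 22.8 to 30.8 TPM in SOD1-K123R and 6.49 to 10.7 TPM in SOD1-WT. Of the glia and muscle markers Ncam1 was at 14.6 to 20.2 TPM in SOD1-K123R and 30.2 to 40.9 TPM in SOD1-WT. The part of these cell types in the lncRNA values was not tested.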

How the data were processed

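RNA was measured in 8 libraries of rat nucleus pulposus cells, made from TRIzol-isolated total RNA with SuperScript II reverse transcriptase and sequenced as paired ends on an Illumina NovaSeq, per the labels' protocols. The authors deposited 1 gene table of TPM, made with RSEM per the table's name, with biotypes and GO terms per the file headers. DESeq2 is named without a role per the submitters' processing notes. The sources used here do not give the aligner, genome build, annotation release or the selection of RNA. Depth is unknown, so no counting interval was set.

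Groups follow the sample titles. The 2890 of 4226 genes that averaged 1 TPM or more were fitted as log2(TPM + 1) with limma 3.58.1 in R 4.3.3 (eBayes with a mean-variance trend, no block), and adjusted by Benjamini-Hochberg over all of them. The procedure was tested on simulated data in which few genes changed and genes varied independently. That test does not cover data such as these, where most genes passed and libraries were ordered alike in many genes. Errors of TPM are SDs over 4 libraries, and SE are limma's moderated standard errors. The members, lists, tests and GO groupings were chosen with earlier results of these data known. The text names every member with a symbol or locus name, and of those with an identifier alone the 2 with the largest change in each direction among passing loci with groups that do not overlap and at least 5 TPM in the higher group. Same-numbered libraries did not deviate from their group means together (correlations of -0.35, 0.016, -0.204 and 0.054). With 4 libraries in each group this cannot exclude shared cultures or handling. The labels state no pairs, so none were used in the main fit. RefSeq tables of GRCr8 gave names and sequences. Reads of antisense, overlapping or near-identical loci may have been split between rows, which makes the TPM of single lncRNAs uncertain.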

Additional observations from a re-analysis of the deposited data

Results flagged for a closer look

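Among 32 groups of 4 values examined (the 10 named loci, the 5 most abundant loci and the summed level, in each group), 1 held a library that stood apart from the other 3. The second most abundant locus was lowest in SOD1-WT replicate 4, at 492 TPM, while replicates 1 to 3 lay between 563 and 575 TPM. Chance gives such a gap in about 1 of 20 groups.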

How the results depend on the processing

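Of 175 values of the 10 named loci under other settings, 171 kept their direction and their side of the threshold. The 4 others were those of Dkc1: it passed after median-of-ratios scaling (0.45) and quantile normalization (0.44), which brought the named lncRNAs that rose to 2 in each, and it changed sign, without passing, with equal column totals (-0.14) and without SOD1-WT replicate 2 (-0.0064; leaving out 1 library at a time gave -0.0064 to 0.17). With a mean of at least 5 TPM required, 42 lncRNAs rose and 31 fell, of which 42 and 30 were unnamed and 0 and 1 named, because 75 members were then tested. The median log2 fold change of the members was 0.42 with a pseudocount of 0.1, 0.66 at 5 TPM, 0.575 after median-of-ratios scaling, 0.46 after quantile normalization and 0.052 with equal column totals. The log2 ratio of summed TPM was -0.0078, -0.65 and -0.78 after median-of-ratios scaling, quantile normalization and equal column totals. Leaving out 1 library at a time gave 114 to 119 that rose and 95 to 101 that fell, and the replicate block gave 117 and 98. A filter of 1 TPM in either group, chosen after seeing the data, gave 155 and 140. Low levels limit the precision: 90 members lay between 1 and 2 TPM, and 14 of the 239 were listed at 0 in at least 1 library.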
